A study of Mus musculus with 20 samples.

Results

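Among the 78258 genes of the count table, the 10 described here are G protein-coupled receptors for 4 kinds of neuropeptide that act on primary sensory neurons. They are the cholecystokinin receptor gene Cckbr, the galanin receptor genes Galr1 and Galr2, the neuropeptide Y receptor genes Npy1r, Npy2r and Npy5r, and the opioid receptor genes Oprm1 (mu), Oprd1 (delta), Oprk1 (kappa) and Oprl1 (nociceptin). They were taken by gene symbol after matching Ensembl identifiers, and all 10 passed the filter on low counts along with 28564 genes in all. Expression was measured by stranded mRNA sequencing in dorsal root ganglia (DRG, which hold the cell bodies of sensory neurons) of lumbar levels 4 to 6 from 10 male mice, each giving 1 contralateral and 1 ipsilateral library. The 5 mice of the conditional knockout (cKO) group, numbered 61, 64, 95, 99 and 100, were Ahr fl/fl with Thy1CRE-ERT2/EYFP, a tamoxifen-inducible Cre under the Thy1 promoter with a fluorescent reporter. The 5 control mice, numbered 62, 63, 65, 96 and 97, are given by the protocol text as Ahr f/f or f/+. Their genotype labels and library names all read ff while their titles read Wildtype, so the labels do not settle which of them, if any, were f/+. Cre is driven in Thy1-expressing cells, so other cells of the ganglion keep the gene. All mice of both groups received tamoxifen (100 mg/kg, intraperitoneal, on 5 days) at 17 weeks of age. The 4 groups hold 5 libraries each: control contralateral, control ipsilateral, cKO contralateral and cKO ipsilateral, taken 1 day after the sciatic nerve was transected, 4 weeks after tamoxifen. The lesion is given here as the protocol text has it; the treatment label speaks instead of spinal cord injury. Contralateral ganglia come from lesioned animals and are not ganglia of uninjured mice.

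These receptors sit on cell bodies, axons and spinal terminals of sensory neurons and are best known for tuning how much transmitter such neurons release. Opioid, neuropeptide Y and GALR1 receptors act mainly through Gi/o proteins, which inhibit adenylyl cyclase, close voltage-gated calcium channels and open inwardly rectifying potassium channels, whereas the cholecystokinin B receptor and GALR2 act mainly through Gq and phospholipase C. Galanin and neuropeptide Y are peptides that sensory neurons themselves make after their axons are cut.

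The sequence upstream of the transcription start is shown for the receptor with the strongest rise (Cckbr), for the receptor with the lowest p between genotypes (Npy2r), and for a pair of receptors that fell by a similar amount (Oprd1 and Oprl1). RefSeq promoter windows, on build GRCm38.p6, were found for 8 of the 10 genes (12 windows, 3 each for Oprl1 and Oprm1); Galr1 is not printed, and Oprk1 had no entry. Each run is the 250 bases before the start, read 5′ to 3′ on the strand of the gene, and capitals mark a motif match.
Cckbr, chr7:105425481-105425730, plus strand: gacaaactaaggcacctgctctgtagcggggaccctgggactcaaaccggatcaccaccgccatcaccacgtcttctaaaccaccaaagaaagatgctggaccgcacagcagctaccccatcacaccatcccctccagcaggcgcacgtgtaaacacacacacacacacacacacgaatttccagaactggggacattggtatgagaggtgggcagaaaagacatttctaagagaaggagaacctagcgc
Npy2r, chr3:82548086-82548335, minus strand: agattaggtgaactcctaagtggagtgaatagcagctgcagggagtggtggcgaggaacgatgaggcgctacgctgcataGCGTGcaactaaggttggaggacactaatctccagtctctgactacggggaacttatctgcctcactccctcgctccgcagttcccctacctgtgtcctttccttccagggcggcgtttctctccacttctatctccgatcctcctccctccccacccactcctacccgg
Oprd1, chr4:132144487-132144736, minus strand: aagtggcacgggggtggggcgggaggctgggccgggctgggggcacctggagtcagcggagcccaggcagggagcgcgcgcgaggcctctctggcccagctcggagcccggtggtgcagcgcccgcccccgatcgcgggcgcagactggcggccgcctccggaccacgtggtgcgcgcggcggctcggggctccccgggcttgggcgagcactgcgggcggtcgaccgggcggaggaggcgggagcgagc
Oprl1, chr2:181714766-181715015, plus strand, the first of its 3 windows: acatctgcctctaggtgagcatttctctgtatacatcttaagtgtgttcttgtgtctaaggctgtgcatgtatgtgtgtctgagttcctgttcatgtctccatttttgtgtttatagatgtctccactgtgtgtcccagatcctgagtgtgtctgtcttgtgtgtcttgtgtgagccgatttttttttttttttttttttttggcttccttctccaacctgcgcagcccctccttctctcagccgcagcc
Npy1r, chr8:66697181-66697207, plus strand, a 27-base site of its window: gcgccttgctTGAGTCAaggactagtg
The 3 motifs searched, each on both strands, were the AP-1 motif TGANTCA, the cyclic AMP response element TGACGTCA, and GCGTG, the core of the element bound by the aryl hydrocarbon receptor. None of the 3 motifs can contain another. Of 32851 mouse promoter windows of the same length, 6.75% held the AP-1 motif, 1.55% the cyclic AMP element and 28.2% the GCGTG core. Among the 8 genes the AP-1 motif was found in Npy1r alone, beginning 231 bases before the start, and the GCGTG core in Npy2r alone, beginning 170 bases before it. The cyclic AMP element was in none of the 12 windows, and Cckbr, Oprd1 and Oprl1 held none of the 3. The windows differ widely in composition, with 44.4% G and C in that of Oprl1, 53.6% in Cckbr, 56.8% in Npy2r and 80.0% in Oprd1. Only a short site is given for Npy1r because 230 of its 250 bases lie in exons of the GENCODE M21 annotation. In M21 Npy1r starts at position 66697192, within the AP-1 match. The distance of 231 bases thus holds for the RefSeq start only. A match describes letters only and is not evidence of binding. Npy1r and Npy5r lie on chromosome 8 in opposite directions, with M21 starts 9064 bases apart.

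Libraries held 76.2 to 118.5 M counts (M, mega). Atf3, a transcription factor induced by axotomy, rose ipsilaterally by 5.23 (control) and 5.50 (cKO) on the log2 scale. Ahr, the targeted gene, was measured at 24.2 ± 2.10 CPM (a gene's counts scaled to a common library total) in control and 20.4 ± 0.536 CPM in cKO contralateral libraries (SD, n = 5) and was not called lower in edgeR (log2 fold change -0.25, adjusted p 0.103). The summed level of 11 sensory neuron markers was 7504 to 8978 CPM over all 20 libraries, and none was at 0. Sums of 6 spinal cord glia markers were 27.6 to 42.5 CPM, with Olig2 at 0 in all control contralateral libraries, and sums of 5 muscle markers ran from 2.69 to 1592 CPM.

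Injury changed 8 receptors in each genotype, some upward and some downward. In control mice 8 of the 10 were called (adjusted p under 0.05), where 29.9% of all tested genes were called: 3 were higher on the ipsilateral side (background 13.8%) and 5 were lower (background 16%). In cKO mice 8 of the 10 were called (background 31.3%), 4 higher (background 16.2%) and 4 lower (background 15.1%). Cckbr, Npy1r and Galr2 rose in both genotypes, and Galr1, Oprd1, Oprk1 and Oprl1 fell in both. Oprm1 was also called lower in control mice and Npy2r higher in cKO mice, and for neither gene did the difference between genotypes pass the test of the interaction. Ranges of the sides did not overlap for 7 receptors in control mice (background 23.6%) and for 6 in cKO mice (background 20.2%). The median absolute log2 fold change of the receptors was 0.84 in control and 0.68 in cKO mice, against 0.16 and 0.17 over all genes tested. These are whole-ganglion measurements, in which fewer cells of a type and less RNA per cell cannot be told apart. Over the same comparisons the sensory neuron markers had a median log2 fold change of -0.04 in control mice, with 1 higher and 4 lower of 11, and of -0.09 in cKO mice, with 1 higher and 3 lower. Markers of other cells were counted too, against the same shares of all tested genes. Counts of 0 or 1 in lists this small are near those shares. Of 5 tested spinal cord glia markers 3 were higher in control mice (Aldh1l1, Mog and Mobp) and 1 in cKO mice (Aldh1l1), and of 5 satellite glia markers 1 was higher in control (Kcnj10) and 2 in cKO mice (Kcnj10 and Ptprz1). Macrophage markers had a median of 0.46 with 1 of 8 higher in control mice (Mrc1) and of 0.17 with 0 of 8 in cKO mice, and endothelial markers 0.40 with 1 of 5 higher (Tek) and 0.07 with 0 of 5. Summed macrophage CPM was 83.5 to 155 contralaterally and 98.5 to 184 ipsilaterally in control mice. The 12 markers of sensory neuron subtypes had 1 higher and 4 lower in control and 2 higher and 3 lower in cKO mice. Fibroblast markers had a median of 0.32 with 0 of 6 called in control mice and of -0.48 with 1 of 6 lower (Dpt) in cKO mice. With 0 of 5 called in either genotype, neutrophil markers had a median of 0.64 in control and -0.10 in cKO mice, and muscle markers 0.54 and -3.39. Likewise 0 of 8 Schwann cell markers were called in either genotype (medians 0.05 in control and -0.0046 in cKO mice). The same held for lymphocyte markers, with 0 of 6 called (medians -0.22 and -0.34). The part of these cells in the receptor changes was not tested. Adjusted p-values are from edgeR's quasi-likelihood test with Benjamini-Hochberg adjustment over all 28564 genes. Values per library below follow the mouse numbers in ascending order within each group.

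**Figure D1:**
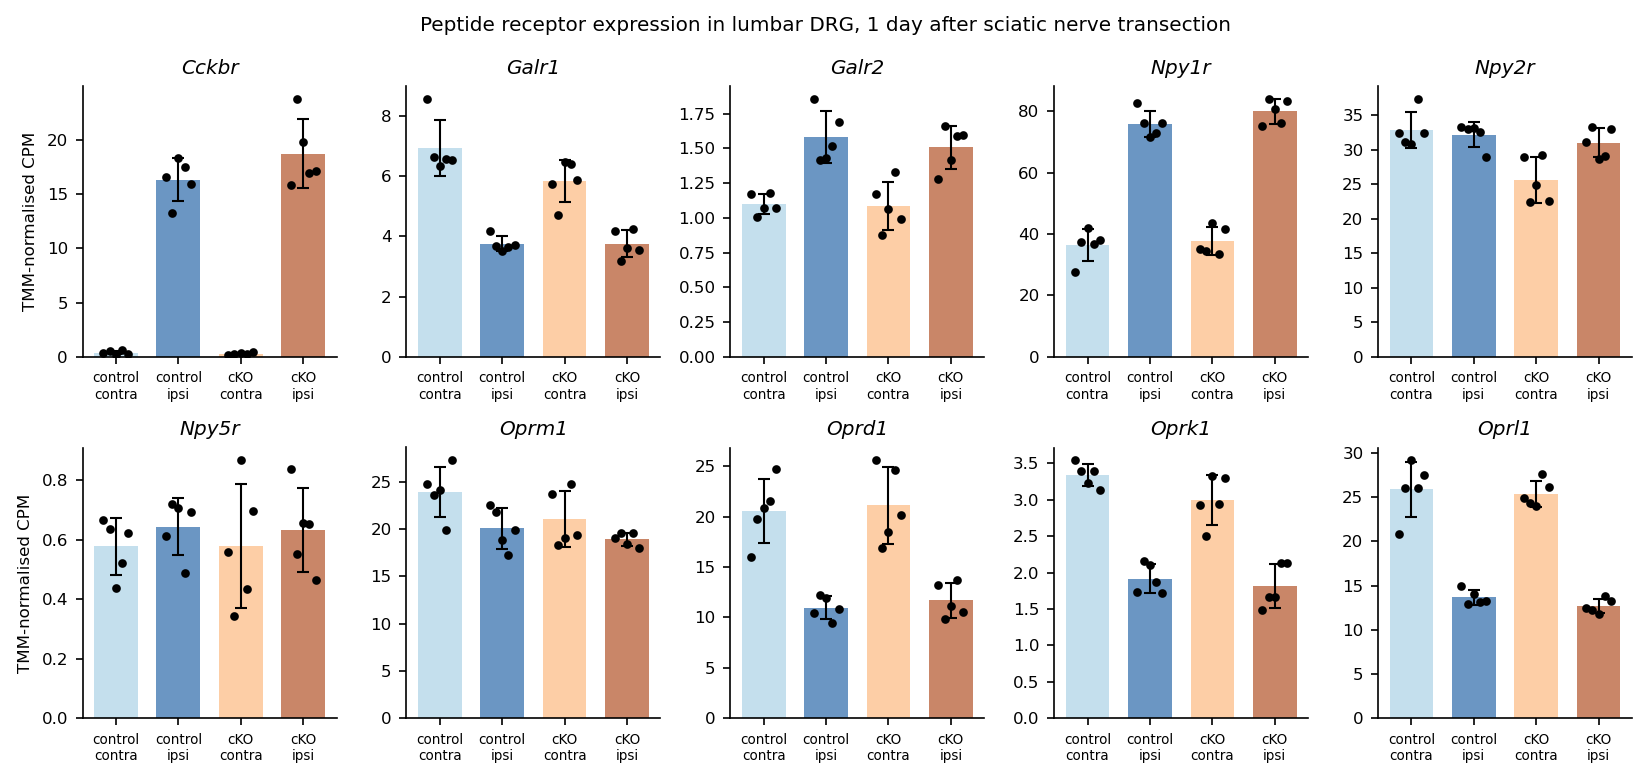
TMM-normalised CPM of each receptor (vertical axis, one scale per panel) in the 4 groups (horizontal axis); points are libraries, bars are means and whiskers are SD (n = 5). Cckbr goes from under 1 CPM contralaterally to over 13 CPM ipsilaterally, and the opioid receptor genes Oprd1, Oprk1 and Oprl1 are lower ipsilaterally in both genotypes.

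Cckbr encodes the receptor for cholecystokinin and gastrin that predominates in the nervous system. In control contralateral ganglia it had 0.349, 0.514, 0.199, 0.606 and 0.287 CPM, and in control ipsilateral ganglia 16.6, 13.2, 18.3, 17.5 and 15.96 CPM. In cKO mice the contralateral values were 0.193, 0.228, 0.355, 0.217 and 0.447 CPM and the ipsilateral values 15.9, 23.8, 19.8, 16.9 and 17.1 CPM. Every ipsilateral library stood far above every contralateral one, with no overlap in either genotype. Contralateral libraries held 17 to 73 reads of the gene, and ipsilateral libraries 1027 to 2805. The mean rose from 0.391 ± 0.167 to 16.3 ± 1.95 CPM in control mice, a 41.7-fold ratio of means (log2 fold change 5.36, SE 0.240, adjusted p 5.038e-12). The cKO mean rose from 0.288 ± 0.109 to 18.7 ± 3.18 CPM, a 64.9-fold ratio (log2 fold change 6.02, SE 0.253, adjusted p 1.691e-12). Single mice ranged from 25.7-fold to 92.1-fold in control and from 38.3-fold to 104-fold in cKO, so the ratios overlap between genotypes and rest on few contralateral reads. The size of the response did not pass the test of a difference between genotypes (log2 difference 0.65, SE 0.341, adjusted p 0.539). By Pearson correlation of log2 CPM over the 20 libraries, among 14223 genes, the genes most like Cckbr were Tnfrsf12a (r = 0.994), which encodes the TWEAK receptor, and Atf3 (r = 0.994), and the 20 points include both sides. In control mice their log2 fold changes were 2.19 and 5.23, beside 5.36 for Cckbr.

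Among the galanin receptor genes, Galr1 fell and Galr2 rose. Galr1 encodes the Gi/o-coupled receptor. Its control contralateral values were 8.56, 6.65, 6.32, 6.58 and 6.55 CPM and its control ipsilateral values 4.18, 3.69, 3.52, 3.65 and 3.70 CPM. In cKO mice it had 5.74, 4.72, 6.46, 6.40 and 5.86 CPM contralaterally and 4.19, 3.18, 3.63, 4.23 and 3.54 CPM ipsilaterally. The sides did not overlap in either genotype, and mouse 62 was highest on both sides among control mice. The log2 fold change was -0.89 (SE 0.0983, adjusted p 5.409e-07) in control and -0.64 (SE 0.0981, adjusted p 3.335e-05) in cKO mice. On the injured side the genotypes had the same mean, 3.75 CPM. Galr2 encodes the Gq-coupled receptor and was less abundant, at 69 to 196 reads per library. It rose from 1.10 ± 0.0746 to 1.58 ± 0.188 CPM in control mice (log2 fold change 0.52, SE 0.110, adjusted p 9.322e-04), with no overlap between sides. The cKO mean rose from 1.09 ± 0.172 to 1.51 ± 0.156 CPM (log2 fold change 0.47, SE 0.110, adjusted p 0.00218), and there the ranges of the sides overlapped, with 1.33 CPM in the highest contralateral and 1.28 CPM in the lowest ipsilateral library. All 10 mice had more Galr2 ipsilaterally than contralaterally, and all 10 had less Galr1.

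Of the neuropeptide Y receptor genes, Npy1r rose in both genotypes and Npy5r was called in neither. Npy1r, which encodes the Y1 receptor found on sensory cell bodies, had 27.6, 37.6, 42.1, 36.8 and 38.0 CPM in control contralateral and 82.7, 76.4, 71.5, 72.9 and 76.3 CPM in control ipsilateral ganglia. The cKO libraries had 35.1, 34.6, 43.5, 33.4 and 41.7 CPM contralaterally and 75.3, 84.1, 80.8, 76.3 and 83.5 CPM ipsilaterally. The sides were fully separate in both genotypes. It rose 2.09-fold in control (log2 fold change 1.06, SE 0.0901, adjusted p 2.732e-08) and 2.12-fold in cKO mice (log2 fold change 1.09, SE 0.0901, adjusted p 1.595e-08), and the interaction was 0.03 (95% interval -0.22 to 0.27). Npy5r, which encodes the Y5 receptor, was near the lower end of detection, with 27 to 78 reads in each library. Its means were 0.577, 0.644, 0.579 and 0.632 CPM in control contralateral, control ipsilateral, cKO contralateral and cKO ipsilateral ganglia. No injury change was detectable, with log2 fold changes of 0.16 (95% interval -0.25 to 0.57, adjusted p 0.631) in control and 0.12 (-0.29 to 0.53, adjusted p 0.713) in cKO mice.

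Npy2r encodes the Y2 receptor, an inhibitory receptor of presynaptic terminals. Control contralateral libraries had 32.5, 31.1, 30.9, 37.4 and 32.4 CPM, and control ipsilateral libraries 33.3, 33.0, 33.2, 32.6 and 28.9 CPM. Contralateral cKO libraries had 29.0, 22.4, 24.9, 29.3 and 22.6 CPM, and ipsilateral cKO libraries 31.1, 33.3, 28.6, 29.1 and 33.0 CPM. The contralateral cKO group was the low one: all 5 of its libraries were below all 5 control contralateral libraries, while the ranges of the other 3 groups overlapped one another. Its range did overlap those of both ipsilateral groups. With injury the log2 fold change was -0.03 (SE 0.0748, adjusted p 0.824) in control mice. In cKO mice it was 0.28 (SE 0.0750, adjusted p 0.00739), a rise in 4 of 5 mice that was called although the sides overlapped. Without mouse 64 this rise was 0.20 (adjusted p 0.0666) and without mouse 100 it was 0.21 (adjusted p 0.0597), so the call rests on each of those mice.

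Of the 4 opioid receptor genes 3 fell in both genotypes, to between 0.501 and 0.605 of the contralateral mean; 9.96% of all tested genes were lower in both. Oprd1, the delta receptor gene, had 15.95, 19.7, 20.8, 21.6 and 24.7 CPM in control contralateral and 10.5, 12.2, 11.9, 9.46 and 10.8 CPM in control ipsilateral ganglia. Libraries of cKO mice had 25.6, 16.9, 18.4, 24.6 and 20.1 CPM contralaterally and 13.2, 9.82, 11.2, 13.8 and 10.5 CPM ipsilaterally. No ipsilateral library reached a contralateral one. The log2 fold change was -0.91 (SE 0.129, adjusted p 2.072e-05) in control and -0.85 (SE 0.129, adjusted p 3.887e-05) in cKO mice. Oprl1, the gene of the nociceptin receptor, had 20.8, 26.0, 29.2, 26.0 and 27.5 CPM in control contralateral and 14.97, 13.0, 14.1, 13.2 and 13.3 CPM in control ipsilateral ganglia. In cKO mice it had 24.9, 24.3, 23.97, 27.6 and 26.2 CPM contralaterally and 12.5, 12.3, 11.8, 13.8 and 13.2 CPM ipsilaterally. Here too the sides were separate, and the response was even across cKO mice, whose ipsilateral level was 0.494 to 0.505 of the contralateral level. The log2 fold change was -0.92 (SE 0.0704, adjusted p 2.519e-09) in control and -0.997 (SE 0.0705, adjusted p 5.616e-10) in cKO mice. Oprk1, the kappa receptor gene, fell from 3.34 ± 0.156 to 1.92 ± 0.203 CPM in control mice (log2 fold change -0.80, SE 0.104, adjusted p 4.233e-06) and from 3.001 ± 0.339 to 1.82 ± 0.299 CPM in cKO mice (log2 fold change -0.73, SE 0.104, adjusted p 1.379e-05), with no overlap between sides.

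Oprm1, the mu receptor gene and main target of morphine, moved least of the opioid receptor genes. Control contralateral libraries had 24.8, 23.6, 24.2, 19.96 and 27.3 CPM, and control ipsilateral libraries 22.6, 21.9, 18.9, 17.3 and 19.9 CPM. In cKO mice the contralateral values were 23.7, 18.3, 19.1, 24.8 and 19.4 CPM and the ipsilateral values 19.0, 19.6, 18.5, 19.6 and 18.1 CPM. The sides overlapped in both genotypes, although all 5 control mice and 4 of 5 cKO mice had less on the injured side. The log2 fold change was -0.25 (SE 0.0897, adjusted p 0.0383) in control mice, which was called, and -0.15 (SE 0.0898, adjusted p 0.219) in cKO mice, which was not. The control call did not hold with mouse 63, 65, 95 or 97 left out. The log2 fold change was then -0.28, -0.22, -0.23 and -0.18, with adjusted p of 0.0576, 0.145, 0.0587 and 0.201. In the GENCODE M21 annotation 96 bases of the Oprm1 exons (1.19%) overlap those of Ipcef1 on the opposite strand. The other 9 receptors share no exon bases with another gene of M21. The annotation used for the counts is not given, so overlaps in it were not checked.

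**Figure D2:**
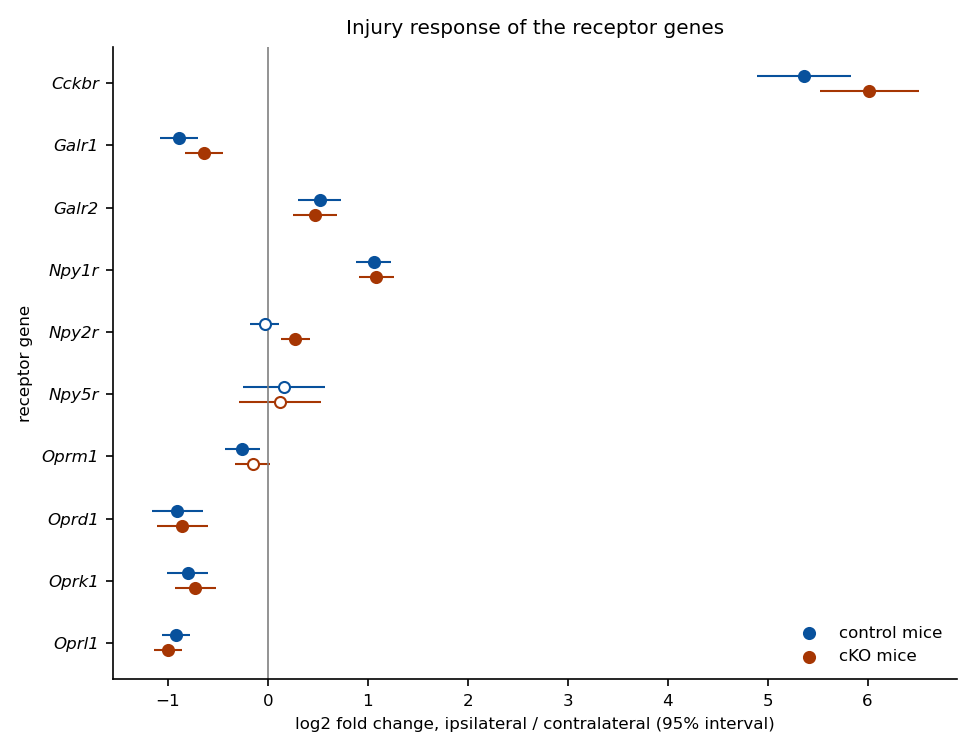
Log2 fold change of ipsilateral over contralateral ganglia (horizontal axis) for each receptor gene (vertical axis) in control (blue) and cKO mice (brown); filled points were called, open points were not, and lines are 95% intervals. Cckbr stands at 5.36 and 6.02, Npy1r near 1, and Galr1, Oprd1, Oprk1 and Oprl1 between -0.997 and -0.64.

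Between genotypes no receptor was called on the contralateral side, where 0.0735% of all genes were called. There were 2 with an unadjusted p under 0.05, Npy2r and Galr1, a share near the 17.5% of all tested genes. The contralateral Npy2r mean was 32.8 ± 2.63 CPM in control and 25.6 ± 3.34 CPM in cKO mice, a difference of -21.9% (log2 fold change -0.36, SE 0.0750, 95% interval -0.50 to -0.21) with an adjusted p of 0.0613 in edgeR. It was the 1 receptor whose ranges did not overlap between genotypes, as was so for 1.52% of all tested genes. DESeq2 gave -0.35 with an adjusted p of 0.00182 and called it (background 5%, 1041 of 20802 genes), and the adjusted p ran from 0.00182 to 0.384 over all alternatives. Without mouse 61 edgeR called it (adjusted p 0.0343) along with 0.605% of all tested genes, 174 in number. Without mouse 99 it did so too (adjusted p 0.00415), but then 11.5% of all tested genes were called, 3326 against 21 with all mice. The log2 difference was between -0.41 and -0.26 in every alternative run. Galr1 was 6.93 ± 0.920 CPM in control and 5.84 ± 0.703 CPM in cKO contralateral ganglia (log2 fold change -0.25, SE 0.0969, adjusted p 0.195), with overlapping ranges. In the same pair of groups, the summed CPM of 6 fibroblast markers was 667 to 1198 in control and 803 to 1733 in cKO libraries, with a median log2 fold change of 0.81, 0 of 6 called and none at 0. The median was 0.79 for 5 neutrophil markers (0 called; sums of 32.4 to 97.7 CPM in control and 18.1 to 152 CPM in cKO libraries), 0.28 for 8 macrophage markers (0 called; 83.5 to 155 and 82.6 to 214 CPM) and 1.43 for 5 muscle markers (0 called; 8.43 to 330 and 5.27 to 1592 CPM). The 12 markers of sensory neuron subtypes had a median of -0.07 with 0 called, and sums of 2337 to 2593 CPM in control and 2344 to 2578 CPM in cKO libraries. The part of these cell types in the Npy2r difference was not tested.

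On the ipsilateral side 0 of 10 receptors were called by edgeR (background 0.007%), 0 had an unadjusted p under 0.05 (background 2.36%) and DESeq2 called 0 (background 0.0105%). Log2 differences ran from -0.11 for Oprl1 to 0.20 for Cckbr. The 95% interval was -0.20 to 0.09 for Npy2r, -0.10 to 0.25 for Npy1r and -0.16 to 0.56 for Cckbr. For the interaction of genotype and injury, edgeR called 0 of 10 receptors (background 0%) and DESeq2 called 0 (background 0.0385%). An unadjusted p under 0.05 was found for 1 of 10, near the background of 9.8%. That one was Npy2r (log2 difference 0.30, SE 0.106, 95% interval 0.10 to 0.51, adjusted p 0.485, and 0.101 to 0.844 over the alternatives). The contralateral difference, the cKO injury response and the interaction of Npy2r share the cKO contralateral libraries and are not separate lines of evidence. Per mouse, the ipsilateral level of Npy2r was 0.872 to 1.07 of the contralateral level in control and 0.995 to 1.49 in cKO mice, so the ranges overlapped.

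**Figure D3:**
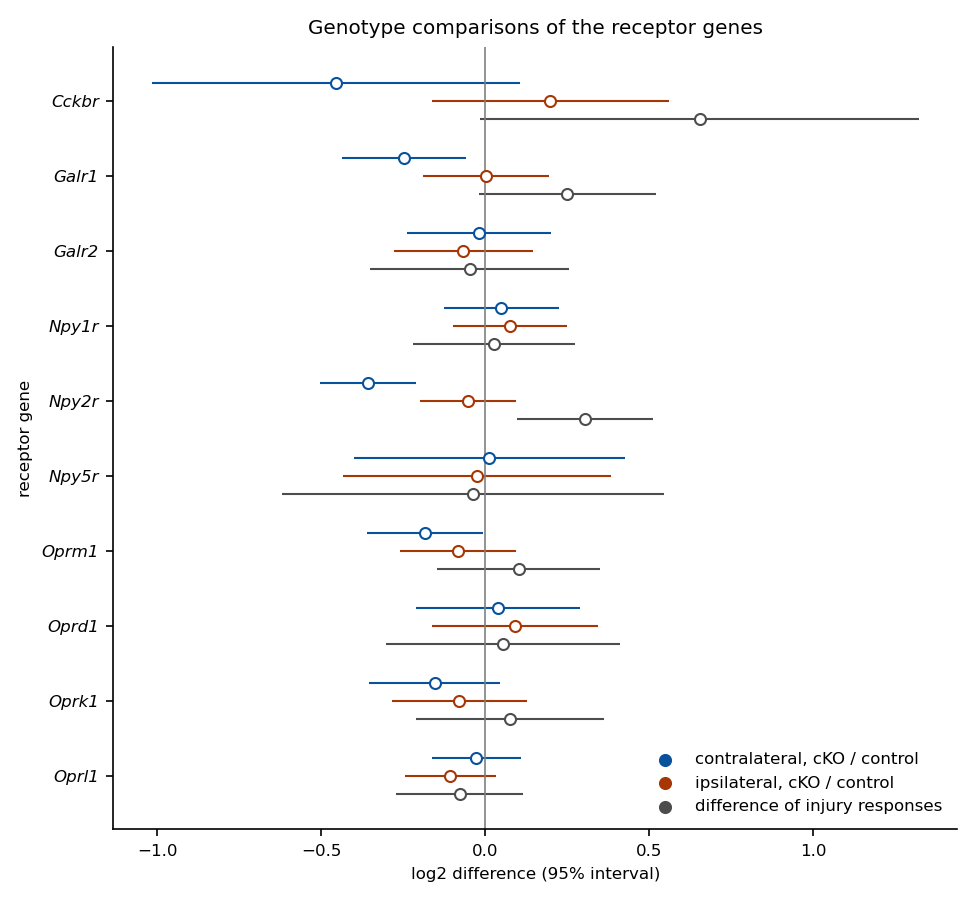
Log2 difference (horizontal axis, lines are 95% intervals) for each receptor gene (vertical axis) between cKO and control contralaterally (blue), ipsilaterally (brown) and for the difference of the injury responses (grey). All points are open since the edgeR fit of all 20 libraries called none (DESeq2 called Npy2r contralaterally); Npy2r contralaterally, at -0.36, lies farthest from 0 relative to its interval.

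Levels were set side by side per kilobase of merged exon, because CPM grows with transcript length. In control contralateral ganglia Npy1r (10.5 ± 1.54 CPM per kb) and Npy2r (9.70 ± 0.779) were highest and their ranges overlapped. Oprl1 (6.90 ± 0.828) and Oprd1 (5.12 ± 0.791) came next and overlapped each other, as did Oprm1 (2.98 ± 0.328) and Galr1 (2.32 ± 0.308). Galr2, Oprk1 and Npy5r followed at 0.448, 0.365 and 0.226 CPM per kb, and Cckbr was lowest at 0.137, its range overlapping that of Npy5r. The order was the same in cKO contralateral ganglia. Ipsilaterally Cckbr was in the third place at 5.70 ± 0.683 CPM per kb in control and 6.54 ± 1.11 in cKO mice, above every opioid receptor gene on this scale, with no overlap with its neighbours Npy2r and Oprl1. Npy1r was then alone at the top at 22.0 ± 1.25 and 23.2 ± 1.17 CPM per kb. The last place went to Oprk1 at 0.210 and 0.198, whose range overlapped that of Npy5r. The order depends on the length used. In the deposited FPKM, which divide by the whole gene span, Oprl1 is in the first place contralaterally, ipsilateral Cckbr is in the fifth place below Oprl1 and Galr2, and Oprm1 drops to the eighth place contralaterally and the tenth ipsilaterally, since its span of 279693 bases compares with 8037 bases of merged exon.

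**Figure D4:**
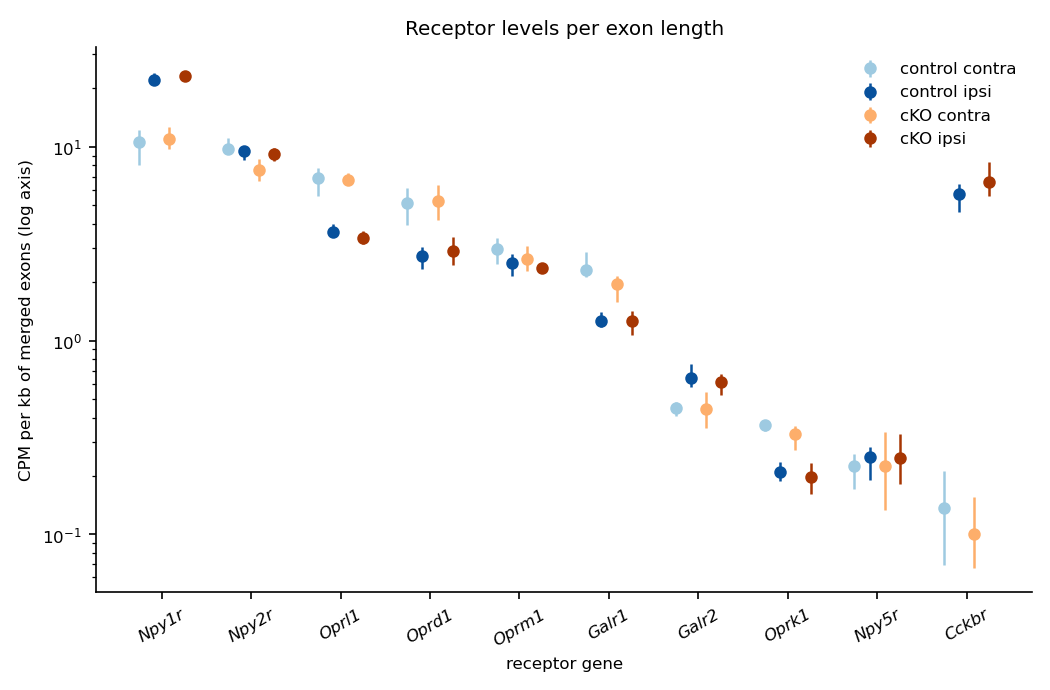
Mean CPM per kb of merged exon (vertical log axis) of each receptor gene, ordered by the control contralateral mean (horizontal axis), in the 4 groups; lines run from the lowest to the highest library (n = 5). Cckbr moves from the last place contralaterally to 5.70 and 6.54 CPM per kb ipsilaterally.

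Of 12 peptide precursor genes for these receptors, 7 were expressed enough to test, and 3 rose in both genotypes (11.4% of all tested genes did) while 0 fell in both (9.96% of all tested genes). Npy, the ligand precursor of the Y receptors, rose from 0.503 ± 0.450 to 5.98 ± 1.44 CPM in control (log2 fold change 3.55, adjusted p 1.049e-04) and from 0.246 ± 0.293 to 6.87 ± 2.98 CPM in cKO mice (4.77, adjusted p 1.206e-05). Gal, the galanin precursor, rose from 16.3 ± 1.69 to 54.1 ± 3.91 CPM in control (log2 fold change 1.73, adjusted p 1.385e-06) and from 19.4 ± 7.39 to 57.0 ± 6.92 CPM in cKO mice (1.55, adjusted p 4.229e-06). The other 2 genes called, named after their values were seen, were Pomc, which makes beta-endorphin and rose by 0.87 and 0.88 on the log2 scale, and Pnoc, the nociceptin precursor, which fell in cKO mice (log2 fold change -0.59, adjusted p 0.0294). Cck, Penk and Pdyn, the precursors of cholecystokinin, enkephalin and dynorphin, also named after their values were seen, were not called; Cck stood at 0.330 CPM in control contralateral and 0.379 CPM in control ipsilateral ganglia. Among 4 further receptor genes for these peptides 2 could be tested and 0 were called by edgeR in either injury comparison. One, named after its values were seen, was Cckar, the cholecystokinin A receptor gene, with log2 fold changes of -0.25 and 0.13. Per exon length Cckar was at 11.6 ± 1.29 CPM per kb contralaterally and 9.79 ± 0.633 ipsilaterally in control mice, above Cckbr on both sides with no overlap.

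Genes that act downstream of the receptors were counted in the same way; the counts below stand against 13.8% of all tested genes higher and 16% lower in control mice, and 16.2% higher and 15.1% lower in cKO mice. Of 5 Gi/o alpha subunit genes 1 rose and 3 fell in control and 1 rose and 1 fell in cKO mice. Gnai3 was the one that rose (log2 fold change 0.17 and 0.22) and Gnai1 fell in both (-0.27 and -0.32). Gnao1 (-0.19) and Gnaz (-0.15), named after their values were seen, fell in control mice. Of 6 Gq pathway genes 0 rose and 3 fell in control, and 0 rose and 1 fell in cKO mice. The share that fell was near that of all genes in cKO mice (15.1%) but above it in control mice (16%). Plcb3, a phospholipase C that Gq activates, fell in both (-0.46 and -0.29). Of 12 tested ion channel and cyclase genes 0 rose and 4 fell in control, and 2 rose and 3 fell in cKO mice. Kcnj3 and Kcnj9, subunits of the potassium channels opened by Gi/o receptors, both fell: Kcnj3 from 33.0 ± 1.93 to 20.01 ± 0.986 CPM in control mice (log2 fold change -0.72, and -0.65 in cKO) and Kcnj9 by -0.53 and -0.69. Kcnj6, a further subunit of these channels, named after its values were seen, was not called in either genotype (-0.057 in control and 0.35, adjusted p 0.0558 in edgeR, in cKO mice). The genes that rose in cKO mice, named after their values were seen, were the calcium channel genes Cacna1a (0.29) and Cacna1b (0.45).

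Of 17 genes for receptor kinases, arrestins and RGS proteins, which end receptor signalling, 4 rose and 7 fell in control and 6 rose and 8 fell in cKO mice. Rgs20, whose product speeds the turn-off of Gi-family subunits, rose from 3.07 ± 0.165 to 11.9 ± 1.19 CPM in control mice (log2 fold change 1.95, adjusted p 1.465e-12) and by 2.05 in cKO mice. Arrb1, a beta-arrestin gene, rose by 0.44 and 0.53, while Rgs14 changed by -0.68 and -0.33 and Rgs6 by -0.38 and -0.42. Of 7 peptide-degrading enzymes 1 rose and 1 fell in control, and 1 rose and 0 fell in cKO mice, a share near that of all genes. Ece1 was the one that rose in each (0.11 and 0.19), and Ece2, named after its values were seen, fell in control mice (-0.15, adjusted p 7.494e-04 in edgeR). Of 35 tested receptors for other peptides 6 rose and 9 fell in control and 6 rose and 12 fell in cKO mice. Mchr1, the melanin-concentrating hormone receptor gene, rose by 2.24 and 2.29 on the log2 scale and Bdkrb2, the bradykinin B2 receptor gene, by 1.62 and 1.68, while Ntsr1 (neurotensin) changed by -1.19 and -0.65 and Sstr1 (somatostatin) by -1.03 and -1.31. The median log2 fold change of these 35 was -0.11 in control and -0.22 in cKO mice, against -0.0047 and -0.03 over all genes tested. No gene of these lists was called by edgeR between genotypes or for the interaction. Calls by DESeq2, which called more genes contralaterally (1041 of 20802), were not counted for these lists.

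**Figure D5:**
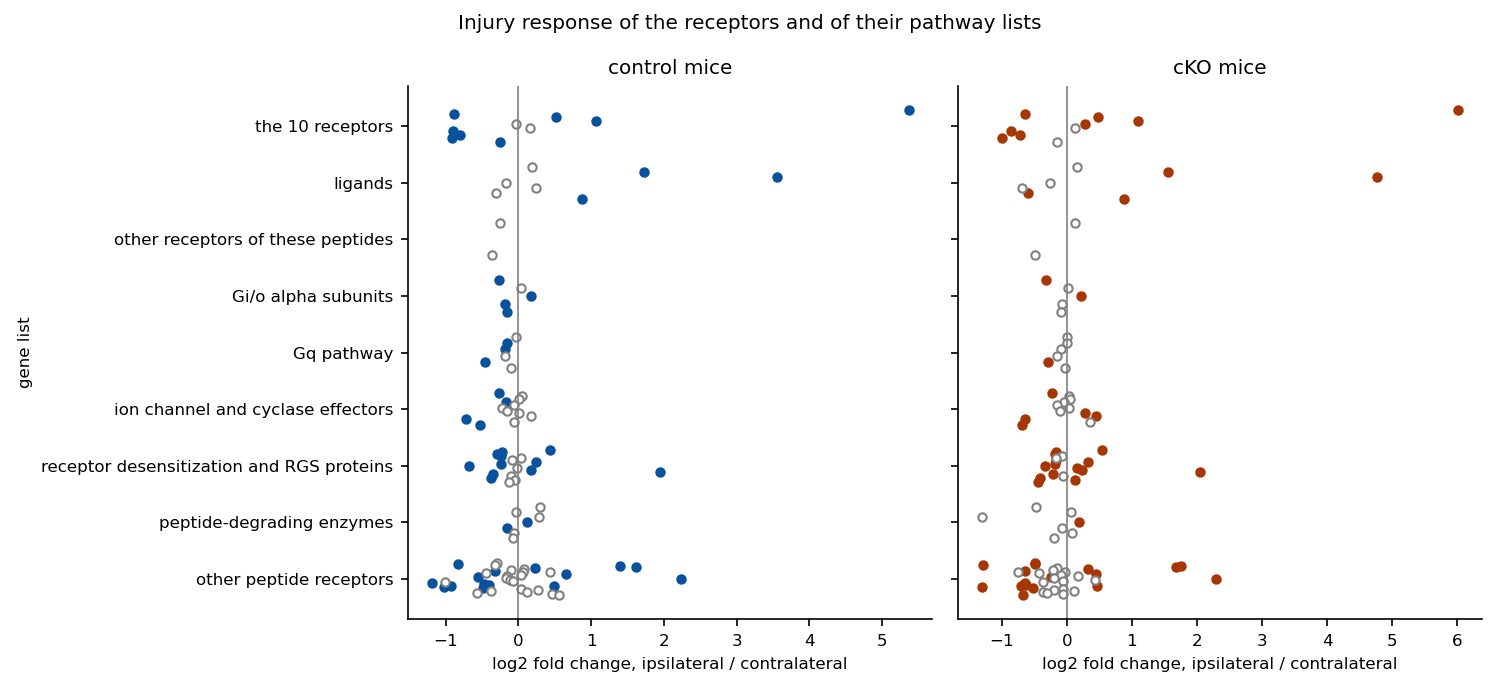
Log2 fold change of ipsilateral over contralateral ganglia (horizontal axes) for the tested genes of each list (vertical axis) in control (left) and cKO mice (right); filled points were called and open points were not. Cckbr at 5.36 and 6.02 and Npy at 3.55 and 4.77 stand farthest to the right, and most G protein and effector genes lie near 0.

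For the other 6 receptors called in both genotypes, the most similar gene patterns over the 20 libraries were found in the same way as for Cckbr. They were Adcyap1 (r = 0.983), the PACAP precursor, and Sprr1a (0.980) for Npy1r, N4bp1 (0.933) and Cd247 (0.931) for Galr2, and Ppp1r21 (0.958) and Chrna6 (0.954) for Galr1. For the opioid receptor genes they were B3galt1 (0.972) and Dcun1d4 (0.972) for Oprd1, Camk1g (0.952) and Pik3r2 (0.949) for Oprk1, and Smad9 (0.986) and Extl2 (0.986) for Oprl1. The points share mouse and library depth, and these are descriptions without a test. A high r does not mean a change of the same size. Chrna6 changed by -0.99 in control and -0.78 in cKO mice, near Galr1 (-0.89 and -0.64), but Ppp1r21 by only -0.20 and -0.12. Sprr1a rose by 5.32 and 5.35 on the log2 scale, where Npy1r rose by 1.06 and 1.09.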

How the data were processed

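RNA from 20 libraries was compared in 4 groups of 5, by genotype and side, as the labels give them. The deposited counts are whole-number reads per Ensembl gene without normalization; HISAT2 and Picard, with builds mm10 and mm39 in no stated role, are named in the submitters' processing notes, and the counter, annotation and strand setting are not given in the sources used here. The deposited FPKM equal CPM divided by the gene span (within 5% for 93.0% of 18805 genes), introns included, and served only as an alternative on the log2 scale with a pseudocount of 1 or 0.1. The main test was the robust quasi-likelihood test of edgeR 4.0.16 (R 4.3.3, TMM factors, filterByExpr with minimum count 10 and minimum total 15) in 1 fit of all 20 libraries, with Benjamini-Hochberg adjustment over 28564 genes. The script was tested on simulated data. Reported CPM are TMM-normalised and intervals are 1.96 SE on either side.

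Symbols and exons came from GENCODE M21 (GRCm38). The 2 libraries of a mouse come from 1 animal and are thus paired; their deviations from group means correlated with a median of 0.308 (-0.160 to 0.668), above 0.1 in 8 of 10 mice. The main fit has no mouse term. Alternatives were the replicate block, DESeq2 1.42.0, limma 3.58.1 (voom, mouse random), RLE scaling, other filters, the range of mouse numbers, only the libraries compared, and leaving out each mouse.

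Besides the 10 receptors, named genes were the 2 highest and 2 lowest in each of 8 lists among those called in both injury comparisons, the 2 nearest patterns (mean of at least 1 CPM, prior count 2) per receptor called in both, Ahr and Atf3; other pathway genes and single cell type markers were picked for naming with their values known. The members and lists were chosen with earlier results of these data known. Libraries held 76.2 to 118.5 M counts (M, mega); SDs hold both the spread between mice and counting error.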

Additional observations from a re-analysis of the deposited data

Results flagged for a closer look

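Single mice stood apart from the other 4 of their group in 6 of 60 groups of 5 values (CPM of each receptor in each group, and its response per mouse in each genotype), where chance alone gives about 1 in 20, or 3. The measure is the gap to the nearest mouse divided by the group's range, with a critical value of 0.71. Control mouse 62 was highest for Galr1 on the contralateral side (8.56 CPM, ratio 0.855) and on the ipsilateral side (4.18 CPM, 0.728), and had the lowest Galr1 response (log2 -1.03, 0.864) and the highest, that is least negative, Oprl1 response (-0.48, 0.879). For Npy2r, control mouse 96 was highest contralaterally (37.4 CPM, 0.752) and control mouse 97 was lowest ipsilaterally (28.9 CPM, 0.825). Without mouse 62 the injury calls of Galr1 and Oprl1 held, and without mouse 96 the contralateral Npy2r difference was -0.30 (adjusted p 0.188).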

How the results depend on the processing

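All 16 called injury changes kept their direction in the 10 alternatives and with each of 10 mice left out, wherever they could be tested. Their size shrank on log2 FPKM, where most values are small beside the pseudocount of 1: in control mice to 0.43 for Cckbr, -0.24 for Galr1, 0.15 for Galr2, -0.28 for Oprd1, -0.10 for Oprk1 and -0.019 for Oprm1, each still called. Calls were lost for Oprm1 in control mice with no filter (-0.24, adjusted p 0.0973), with only the libraries compared (-0.24, adjusted p 0.0623) and without 4 mice, and for Npy2r in cKO mice without 2 mice, as given above. The count of receptors called stayed within 7 to 8 in control and cKO mice, and on the contralateral side between genotypes it went from 0 to 1 with DESeq2 and from 0 to 1 over the fits without 1 mouse (Npy2r each time, without mouse 61 or 99, where 174 and 3326 genes in all were called). With the replicate block 8 and 8 receptors were called for injury and 0 for the interaction, and this pairing changed no other call. It was not run between genotypes, nor was the fit of only the libraries compared for the interaction; Npy5r was not tested at a mean of 1 CPM.

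The sign turned somewhere for 14 of 50 values, 0 of them called and the largest 0.123 in size. They were Npy5r contralaterally between genotypes (-0.021 with voom), Oprl1 contralaterally (7.69e-05 with FPKM and pseudocount 0.1), Galr1 ipsilaterally (-0.0074 with voom, -0.0045 with the range of mouse numbers) and the Npy5r interaction (0.0037 with the block). Leaving out single mice gave, for injury, -0.050 to 0.027 for Npy2r in control and -0.011 to 0.31 for Npy5r in cKO mice. Contralaterally between genotypes it gave -0.099 to 0.048 for Galr2, -0.036 to 0.12 for Npy1r, -0.16 to 0.15 for Npy5r, -0.040 to 0.12 for Oprd1 and -0.097 to 0.033 for Oprl1, and ipsilaterally -0.044 to 0.057 for Galr1 and -0.15 to 0.063 for Npy5r. For the interaction it gave -0.15 to 0.033 for Galr2, -0.060 to 0.14 for Npy1r, -0.17 to 0.13 for Npy5r, -0.037 to 0.11 for Oprd1 and -0.12 to 0.024 for Oprl1. The cause of these turns was not tested. Low counts limit Npy5r and contralateral Cckbr, whose fold depends on 17 to 73 reads per library.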
